A study of Homo sapiens with 5 samples.

Results

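MYC-only intergenic distal sites are places between genes where both MYC libraries had a peak and neither HSF1 library did. They were chosen by the peak calls themselves. The peaks of the MYC lists were merged at an overlap of 1 bp on chromosomes 1 to 22, X and Y, and an interval was kept where it held a peak of both replicates. It became a member where it overlapped no peak of either HSF1 list, where its midpoint lay more than 3 kb from every start site of a protein-coding or long noncoding RNA (lncRNA) transcript in GENCODE 44, and where that midpoint lay outside the body of every such gene. There were 761 such sites among 11756 reproducible MYC intervals (6.47%). The libraries came from proliferating, untreated OVCAR8 cells, a human line used as a model of high-grade serous ovarian carcinoma in which the study describes MYC and HSF1 as amplified. Binding was profiled by CUT&RUN, in which an antibody directs a nuclease to cut and release the DNA around a bound protein, after a short cross-link with 1% formaldehyde. Each of MYC and HSF1 had 2 replicate libraries, and 1 library made with a nonspecific IgG antibody served as the control for all of them. Nothing in the labels says that the replicates came from separate cultures, so their spread may be technical, and with 1 line no result here extends to other cells.

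MYC is a transcription factor of the basic helix-loop-helix leucine zipper family. It binds DNA as a heterodimer with MAX, most tightly at the E-box, and it is found mainly at promoters of active genes and, when abundant, also at enhancers that lie far from any gene start. Enhancers are often bound by AP-1, the dimers of FOS and JUN proteins, and by TEAD factors, whereas ETS factors and CpG-rich sequence are typical of promoters and CTCF marks insulators and loop anchors. HSF1 is the main activator of the heat shock genes.

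The sequences below are examples from the sites, and no comparison rests on them alone. Each is the 200 bp window around a MYC summit, on the plus strand of GRCh38/hg38 and taken from that reference, and the site is named for the gene with the nearest start site, which is a position only and names no target. Capitals mark the E-box CACGTG in the windows near PRAM1 and AMZ2P1, the AP-1 motif TGANTCA in those near DLX2 and SHANK2, and the CTCF core in that near RIN1. The windows near SMARCD2 and at SNORD3A are printed wholly in lower case, since they hold no CACGTG. PRAM1, AMZ2P1 and SMARCD2 mark sites among the 10 with the highest MYC signal. The windows near DLX2, SHANK2, RIN1 and at SNORD3A were chosen as examples after their values were seen.
site near PRAM1, chr19:8505907-8506106: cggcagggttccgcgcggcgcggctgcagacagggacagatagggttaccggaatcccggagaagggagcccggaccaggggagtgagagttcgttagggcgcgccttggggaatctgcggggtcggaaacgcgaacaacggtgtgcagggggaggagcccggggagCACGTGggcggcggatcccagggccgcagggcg
site near AMZ2P1, chr17:64965840-64966039: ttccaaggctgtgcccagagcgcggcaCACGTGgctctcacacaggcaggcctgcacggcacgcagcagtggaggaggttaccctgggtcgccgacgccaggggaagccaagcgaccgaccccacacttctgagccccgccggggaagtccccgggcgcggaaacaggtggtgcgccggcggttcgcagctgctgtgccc
site near SMARCD2, chr17:63848987-63849186: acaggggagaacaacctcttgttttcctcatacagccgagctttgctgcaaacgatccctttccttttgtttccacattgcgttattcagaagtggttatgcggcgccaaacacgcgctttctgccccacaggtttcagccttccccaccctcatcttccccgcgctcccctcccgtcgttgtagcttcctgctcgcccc
site near DLX2, chr2:172099123-172099322: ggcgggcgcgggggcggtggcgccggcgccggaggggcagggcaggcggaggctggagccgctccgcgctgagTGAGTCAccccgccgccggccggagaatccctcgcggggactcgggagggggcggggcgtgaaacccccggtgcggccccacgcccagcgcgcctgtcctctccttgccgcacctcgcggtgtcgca
site near SHANK2, chr11:71299386-71299585: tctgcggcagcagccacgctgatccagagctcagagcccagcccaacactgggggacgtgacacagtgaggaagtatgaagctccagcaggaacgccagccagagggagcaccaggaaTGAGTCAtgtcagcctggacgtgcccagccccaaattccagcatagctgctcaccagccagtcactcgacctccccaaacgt
site near RIN1, chr11:66328475-66328674: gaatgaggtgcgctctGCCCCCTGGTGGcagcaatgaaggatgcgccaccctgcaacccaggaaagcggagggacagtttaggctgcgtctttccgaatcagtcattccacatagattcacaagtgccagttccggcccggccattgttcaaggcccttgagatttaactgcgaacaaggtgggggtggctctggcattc
site at SNORD3A, chr17:19188020-19188219: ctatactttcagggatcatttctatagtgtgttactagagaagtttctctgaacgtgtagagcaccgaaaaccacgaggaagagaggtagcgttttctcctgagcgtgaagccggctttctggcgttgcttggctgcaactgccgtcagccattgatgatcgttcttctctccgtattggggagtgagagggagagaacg

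The window near PRAM1 is rich in CpG, with 70.5% G and C and its E-box towards one end, while that near AMZ2P1 has its E-box near the other end. The window near DLX2 had 80.0% G and C and still held an AP-1 motif. The window at SNORD3A lies inside the gene for a U3 small nucleolar RNA, which guides the processing of ribosomal RNA and is neither protein-coding nor an lncRNA, so the rule on start sites did not remove it.

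MYC signal at the sites was moderate and unequal between the replicates. Fold enrichment is the ratio of the MYC pileup at the summit to the IgG background, as the authors deposited it. In MYC replicate 1 it ran from 4.96 to 58.7 with a median of 14.1, and in MYC replicate 2 from 2.87 to 38.4 with a median of 9.89. It was higher in replicate 1 at 625 of the 761 sites (82.1%), beside 82.1% of all reproducible MYC intervals. Across the 761 sites the folds of the replicates had a Spearman correlation of 0.47, against 0.52 over all 11756 intervals. Both share the IgG library, and sites are not replicates, so the correlation is only a description. The medians over all reproducible MYC intervals were 15.5 and 10.9, and those of the 975 MYC-only distal sites inside genes 14.1 and 9.59. The sites had a median width of 629 bp, from 198 to 2783 bp, beside 774 bp over all intervals. The summits of the replicates lay a median of 69 bp apart, and at 462 sites (60.7%) they lay within 100 bp.

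**Figure D1:**
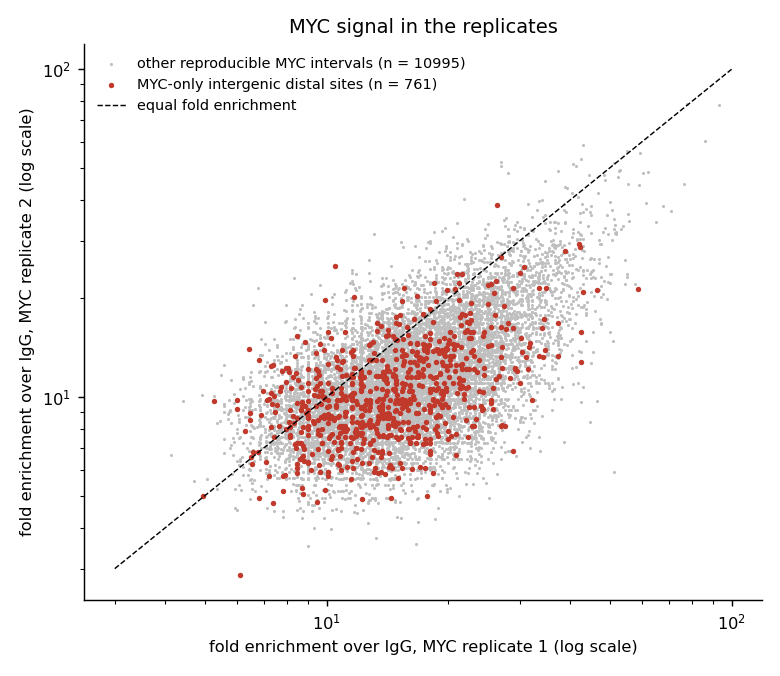
Fold enrichment over IgG in MYC replicate 1 (x axis, log scale) and MYC replicate 2 (y axis, log scale) for each reproducible MYC interval, with the 761 MYC-only intergenic distal sites in red and all others in grey. Most red points lie below the dashed line of equal fold, 625 of 761 being higher in replicate 1, and their medians are 14.1 and 9.89.

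Whether a place between genes counted as a site rested largely on replicate 2. Of 26334 intervals in either MYC list, 11756 (44.6%) held a peak of both, whereas of 2999 intervals that met the rules on location and HSF1, 761 (25.4%) did. Of the remainder, 2177 were called in replicate 1 alone and 61 in replicate 2 alone. The share was 21.3% for MYC-only intervals inside genes and 51.9% for those within 3 kb of a start site. At a stricter p of 1e-20 in both replicates, 383 sites (50.3%) remained, beside 62.0% of all reproducible MYC intervals. Absence of HSF1 was the common case among all MYC intervals, of which 8677 (73.8%) overlapped no HSF1 peak. Among the intergenic distal ones 761 overlapped none and 483 overlapped an HSF1 peak, so overlap was commoner there than over all intervals. These counts describe the lists that chose the sites and carry no test.

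The 10 sites with the highest mean fold spanned 7 chromosomes. The first, at chr8:100847258-100847730, had folds of 58.7 and 21.4 and lay 66894 bp from the nearest start, that of the lncRNA ENSG00000260368. The second, at chr17:63848509-63850309, had folds of 41.9 and 29.3, lay 6344 bp upstream of SMARCD2, a subunit of the SWI/SNF chromatin remodeler, and overlapped the pseudogene TCAM1P. The third, chr19:8505590-8506514, lay 3412 bp upstream of PRAM1 with folds of 42.3 and 28.8. At all 3 of them replicate 1 was the higher.

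The site at chr6:1523906-1524771, 4573 bp from the lncRNA ENSG00000272279, had folds of 46.5 and 21.2. The site at chr9:136567668-136569093, 19250 bp from NALT1, an lncRNA beside NOTCH1, had folds of 38.9 and 27.97. The site at chr5:71289180-71290509, nearest to the lncRNA ENSG00000253985 at 85054 bp, was higher in replicate 2, with folds of 26.3 and 38.4. It was the only one of the 10 with that order, and its 200 bp window has 6 further copies in the reference at 98% identity or more. The window near AMZ2P1 has 1, and no other window among the 10 has any. How reads were placed among such copies was not tested. The remaining 4 lay near ANKRD33B (42.9 and 20.9), COA7, a cytochrome c oxidase assembly factor (42.5 and 15.8), the lncRNA gene AMZ2P1 (34.7 and 21.5) and NUMBL, a regulator of Notch signaling (30.8 and 25.01). The ANKRD33B site lay 528 bp from an HSF1 peak, the nearest approach among the 10. At the low end, the site near PLCB4 had folds of 4.96 and 4.99, and the site near ENSG00000281383 on chromosome 21 had 6.11 and 2.87. The pileups of the latter were 55 and 47, above the medians of 31 and 24 over the 761 sites. That site overlapped a pseudogene of the RefSeq annotation, and its window has 3 further copies in the reference.

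The sites kept a wide range of distances from genes. The midpoint lay a median of 15513 bp from the nearest start site, from 3008 to 555980 bp. There were 92 sites (12.1%) up to 5 kb away, 153 (20.1%) from there to 10 kb, 395 (51.9%) up to 50 kb, 83 (10.9%) up to 100 kb and 38 (4.99%) beyond. Median fold in replicate 1 was 16.1 in the nearest of these classes and 13.3 in the farthest, and in replicate 2 it was 10.3 and 9.65. Just inside the limit of 3 kb were the sites near ENSG00000288852 at 3008 bp (folds 10.7 and 7.57), LINC01629 at 3041 bp (16.7 and 11.5) and SLURP1 at 3149 bp (17.7 and 13.8). Just outside were MYC-only intervals near LINC02004 at 2981 bp (10.3 and 8.53), ENSG00000289140 at 2980 bp (7.92 and 19.1) and ENSG00000224818 at 2979 bp (13.7 and 12.2). The folds on the 2 sides of the limit covered much the same range. The most remote sites lay 555980 bp from ENSG00000233251 on chromosome 2 (17.5 and 15.4), 364841 bp from NSUN3 on chromosome 3 (13.3 and 8.35) and 352838 bp from ENSG00000250597 on chromosome 4 (10.2 and 8.64).

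HSF1 peaks were close to some of the sites although none overlapped. The gap to the nearest peak of either HSF1 list had a median of 44031 bp. The median was 38591 bp for MYC-only distal sites inside genes and 71813 bp for MYC-only sites within 3 kb of a start. For the intergenic distal sites the gap was under 1 kb at 29 sites (3.81%), under 10 kb at 180 (23.7%) and under 100 kb at 524 (68.9%). The smallest gaps were 86 bp near PRELID3B on chromosome 20 (folds 8.47 and 5.88), 116 bp near ANKRD1, a YAP and TEAD target gene, on chromosome 10 (7.82 and 5.74) and 136 bp near NTMT1 on chromosome 9 (14.3 and 8.64). A missing HSF1 call means that no peak passed the authors' p of 1e-04 at that depth, not that HSF1 was absent.

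**Figure D2:**
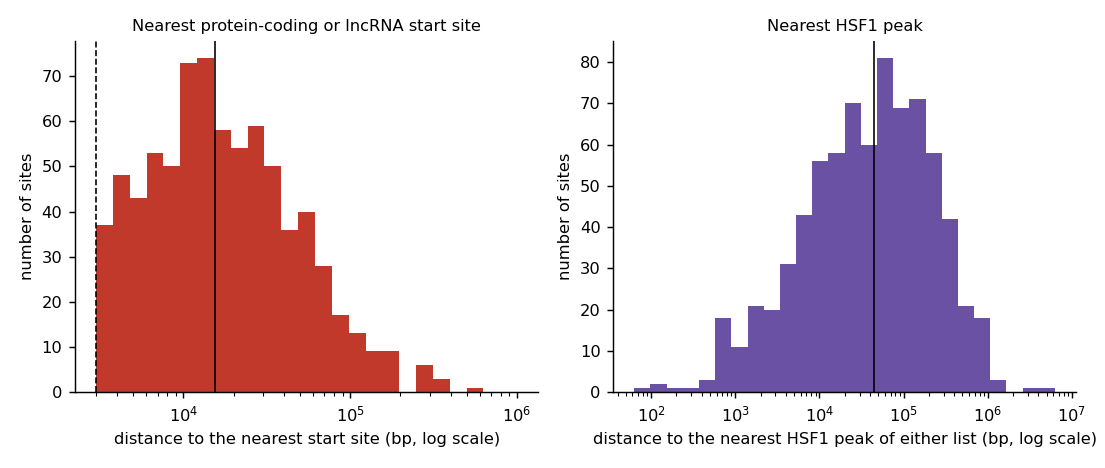
Number of MYC-only intergenic distal sites by distance to the nearest protein-coding or lncRNA start site (left, dashed line at the 3 kb limit) and to the nearest HSF1 peak of either list (right), both in bp on log axes, with solid lines at the medians. The medians are 15513 bp and 44031 bp, and 29 sites lie within 1 kb of an HSF1 peak.

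The E-box was a minority feature of the sites but far commoner than in other intergenic sequence, which was not matched for base composition. Of the 761 windows, 78 (10.2%, 95% Wilson interval 8.29 to 12.6) held CACGTG, beside 1.71% of 5649288 tiles of 200 bp that cover the intergenic distal sequence under the same limits and 8.25% of all reproducible MYC windows. The difference did not pass the test against MYC-only sites inside genes (8.82%, odds ratio 1.18, adjusted p = 0.380, two-sided Fisher's exact test with Benjamini-Hochberg adjustment over 24 tests of 8 motifs in 3 comparisons) or against MYC-only sites within 3 kb of a start (8.92%, odds ratio 1.17, adjusted p = 0.334 in the same exact test). The share was above that of the 483 intergenic distal MYC sites that overlapped an HSF1 peak, of which 23 (4.76%, 3.19 to 7.04) held an E-box, with an odds ratio of 2.28 (adjusted p = 0.00144, Fisher's exact test). In narrower windows of 100 bp, with 3.15% of the sites holding an E-box, this difference no longer passed the exact test (odds ratio 1.93, adjusted p = 0.306), while that from sites inside genes did (2.61, adjusted p = 0.030). The p-values describe these sites and libraries, since sites are not replicates of a condition. The tiles were not matched to the sites in base composition, here or for any other motif. Of the tiles 1.06% were CpG-rich, as defined below, against 25.9% of the sites. The classes of MYC site were not matched in base composition either. The part of base composition in the differences from tiles and between classes was not tested.

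The motif was searched on both strands, as were all others. The window near PRAM1 was one of 2 among the 10 strongest sites that held an E-box, the other being that near AMZ2P1. Sites with an E-box had median folds of 16.8 and 11.9, and the 683 without one had 14.0 and 9.82. There were 5 sites with 2 E-boxes, near PTGS1 (folds 15.4 and 14.0), CYRIB (14.0 and 10.1), TCF3, an E protein of the helix-loop-helix class (10.6 and 13.3), NDRG1, a gene repressed by MYC (12.01 and 7.76), and ENSG00000281383, where the folds are given above. None of the 5 was among the 100 strongest sites.

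Sequence variants of the E-box split the sites from promoters. CACGCG was present in 44 windows (5.78%), against 14.2% of MYC-only sites within 3 kb of a start (odds ratio 0.370, adjusted p = 8.93e-12, Fisher's exact test), 3.79% inside genes and 0.347% of tiles. CATGTG was present in 134 (17.6%), against 5.65% near starts (odds ratio 3.57, adjusted p = 5.22e-26, Fisher's exact test), and in 12.8% of tiles, so most of this share was also present in other intergenic sequence. In the main setting neither variant passed the test against sites inside genes or sites with HSF1 (adjusted p from 0.125 to 0.682, Fisher's exact test). The 3 letter strings cannot match at the same position, although they can overlap.

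AP-1 and TEAD motifs were commoner than at promoters, and in the main setting scarcer than where HSF1 was called, in classes not matched for base composition. TGANTCA was present in 117 windows (15.4%, 13.0 to 18.1), in 4.11% of MYC-only sites near starts (odds ratio 4.24, adjusted p = 8.14e-28, Fisher's exact test), in 18.8% of those inside genes (0.786, adjusted p = 0.125), in 22.6% of the intergenic distal sites with HSF1 (0.623, adjusted p = 0.00457) and in 6.18% of tiles. GGAATG, bound by TEAD factors, was present in 123 (16.2%) of the sites, in 7.66% near starts (2.32, adjusted p = 2.32e-12, Fisher's exact test), in 22.98% of those with HSF1 (0.646, adjusted p = 0.00780) and in 11.5% of tiles. The TEAD difference from sites with HSF1 did not pass the exact test without MYC replicate 1 (odds ratio 0.799, adjusted p = 0.280), with the summits of replicate 2 (0.753, adjusted p = 0.142), with peaks at 1e-20 (0.679, adjusted p = 0.112) or in windows of 100 bp (0.771, adjusted p = 0.367), and in the last the AP-1 difference did not either (0.704, adjusted p = 0.226). By distance, the AP-1 share went from 10.9% of the sites up to 5 kb from a start to 27.7% of the 83 from 50 to 100 kb, and was 5.26% of the 38 beyond. There were 9 sites that held both an E-box and an AP-1 motif, and 575 held neither. Sites with AP-1 had median folds of 13.4 and 8.504, and those without had 14.4 and 10.3, so in both replicates the AP-1 sites had the lower median and the E-box sites the higher one.

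The AP-1 share depended on which MYC library placed the summit. Around the summits of replicate 1 it was 16.0% of the 761 sites and around those of replicate 2 it was 7.62%, while the E-box share was 9.46% and 9.72%. With sites called from the list of replicate 1 alone (2945 sites) the AP-1 share was 24.3% and the E-box share 6.79%, and from the list of replicate 2 alone (904 sites) they were 7.52% and 8.96%. The contrast with promoters and with HSF1 sites kept its direction in each of these settings. The difference from sites inside genes, which did not pass the test in the main setting, passed it with the summits of replicate 1 (odds ratio 0.713, adjusted p = 0.0188, Fisher's exact test).

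**Figure D3:**
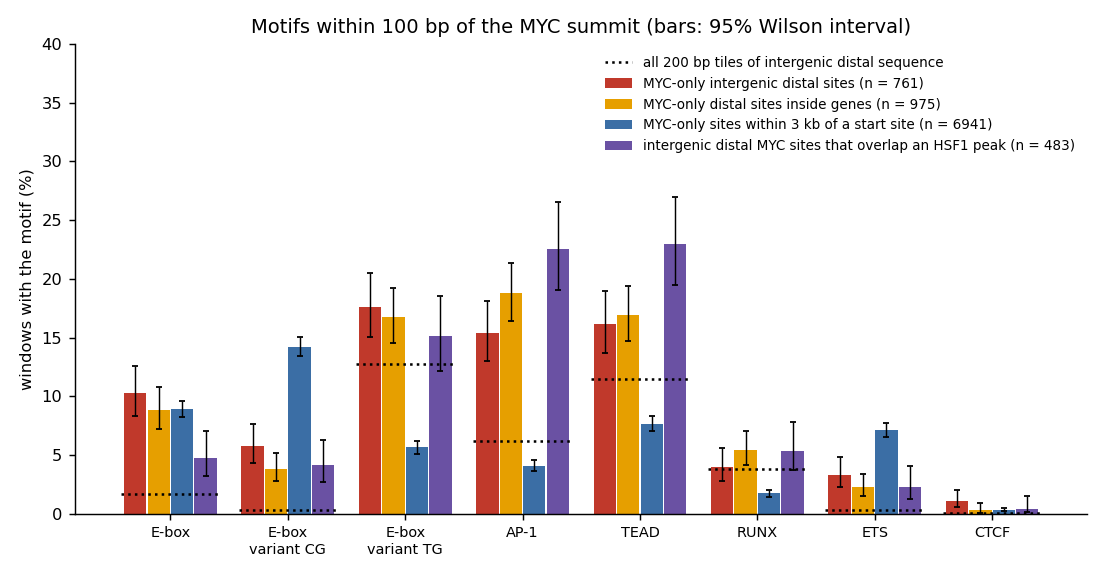
Share of 200 bp windows around the MYC summit (y axis, percent) with each of 8 motifs (x axis; the variants CG and TG are CACGCG and CATGTG) in 4 classes of MYC site, with 95% Wilson intervals as error bars and dotted lines for all 200 bp tiles of intergenic distal sequence. In red, the E-box share of 10.2% stands above the 4.76% of sites that overlap HSF1, and the AP-1 share of 15.4% lies between the 4.11% near start sites and their 22.6%.

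The other motifs were rarer. TGTGGTT, bound by RUNX factors, was in 3.94% of the sites, 1.73% of those near starts (odds ratio 2.33, adjusted p = 0.000579, Fisher's exact test) and 3.802% of tiles. CCGGAAG, bound by ETS factors, was in 3.29% of the sites, 7.13% near starts (0.442, adjusted p = 8.59e-05, Fisher's exact test) and 0.359% of tiles. The CTCF core was in 8 windows (1.05%), 0.346% near starts (3.06, adjusted p = 0.0258, Fisher's exact test) and 0.0630% of tiles. The CTCF difference from sites near starts did not pass the exact test without MYC replicate 1 (0.332% of sites, adjusted p = 0.217), with the summits of replicate 2 (0.394%, adjusted p = 0.172), with peaks at 1e-20 (adjusted p = 0.0735) or in windows of 100 bp (adjusted p = 0.42). Nor did those of RUNX and ETS with peaks at 1e-20 (adjusted p = 0.112 and 0.0652, Fisher's exact test) or in windows of 100 bp (adjusted p = 0.0559 and 0.0667). The site near RIN1, with folds of 27.04 and 12.2, and the site near TENT5B, with 19.5 and 15.2, were the strongest of these 8. None of the 8 motifs differed from the MYC-only sites inside genes at an adjusted p of 0.05 by Fisher's exact test in these windows of 200 bp, and none did so at an unadjusted p under 0.05 either. With sites from the list of replicate 1 alone, CACGCG (odds ratio 1.74, adjusted p = 0.000409), TGANTCA (0.792, adjusted p = 4.16e-05) and the CTCF core (2.07, adjusted p = 0.0127) passed this exact test.

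The motifs did not peak at the summit itself. In bins of 50 bp on both sides, the E-box density was 3.55 matches per 100 sites and 100 bp within 50 bp of the summit, 8.15 from 50 to 100 bp, 10.6 from 100 to 150 bp, 6.31 from 150 to 200 bp and 2.50 from 200 to 250 bp. From 500 to 1000 bp it averaged 1.498. AP-1 was 8.28 within 50 bp, reached 16.3 from 150 to 200 bp and averaged 3.15 from 500 to 1000 bp. The same shape was seen around the summits of each replicate, where the E-box densities within 50 bp were 3.02 and 3.29 and those from 100 to 150 bp were 11.6 and 9.46. The 3 other classes of MYC site also had their highest E-box density from 100 to 150 bp, at 10.9 inside genes, 9.68 near starts and 5.18 at sites with HSF1. What places the summit beside the motif was not tested. A window of 200 bp therefore leaves out the densest ring: within 400 bp windows, 187 of the sites (24.6%) held an E-box, beside 3.42% of 400 bp tiles, and 268 (35.2%) an AP-1 motif, beside 12.02%. In these wider windows the CTCF core was in 30 sites (3.94%), against 11 (1.13%) of the sites inside genes (odds ratio 3.597, adjusted p = 0.000454, Fisher's exact test). In the same comparison CACGCG (odds ratio 1.63, adjusted p = 0.00371) and CCGGAAG (1.69, adjusted p = 0.0249) were also higher by Fisher's exact test, and TGANTCA was lower (0.792, adjusted p = 0.0275). Against sites with HSF1 in these windows, CACGCG newly passed Fisher's exact test (odds ratio 2.18, adjusted p = 0.000454). The CTCF core (2.79, adjusted p = 0.0249) and TGTGGTT (0.627, adjusted p = 0.0258) also newly passed this exact test.

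**Figure D4:**
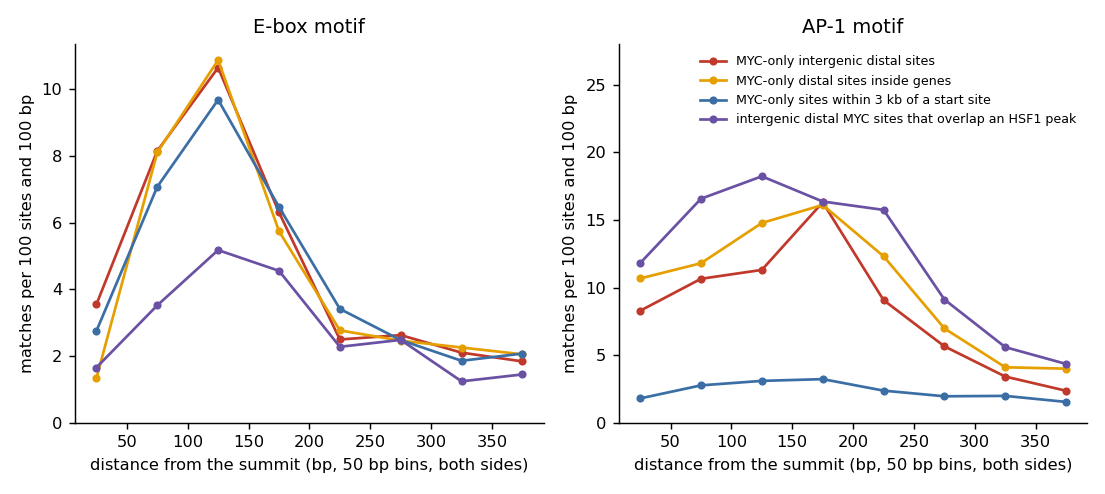
Density of E-box (left) and AP-1 (right) motifs, in matches per 100 sites and 100 bp, by distance from the MYC summit in 50 bp bins with both sides combined, in 4 classes of MYC site. The E-box curve of the MYC-only intergenic distal sites rises from 3.55 next to the summit to 10.6 at 100 to 150 bp.

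Some of the sites were CpG-rich, defined here as at least 50% G and C with an observed to expected CpG ratio of at least 0.6 in the 200 bp window. There were 197 (25.9%, 22.9 to 29.1), beside 57.8% of all reproducible MYC intervals, 74.0% near starts and 1.06% of tiles. The share was 13.8% (11.8 to 16.2) at MYC-only sites inside genes and 13.5% (10.7 to 16.8) at intergenic distal sites with HSF1. The interval of the sites did not overlap those of either other distal class. Median G and C content was 56.0%, against 66.5% near starts and a mean of 39.9% in tiles. Median folds of the CpG-rich sites were 14.2 and 11.4, and those of the others 14.1 and 9.77. AP-1 was in 6.09% of the CpG-rich sites and 18.6% of the others, and the E-box in 12.2% and 9.57%. At MYC-only sites near starts, AP-1 was in 1.77% of the CpG-rich windows and 10.7% of the others. CpG-rich sites were present at every distance, from 30.4% up to 5 kb from a start to 21.1% beyond 100 kb.

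Intergenic here means outside protein-coding and lncRNA genes of GENCODE, and 62 sites (8.15%) overlapped a gene of another type in that annotation. They included 13 at unprocessed pseudogenes such as DDX12B and PRODHLP, 10 at transcribed processed pseudogenes such as DUXAP9 and DUXAP10, 7 at processed pseudogenes such as GGCTP1 and LONRF2P1, 7 at transcribed unitary pseudogenes such as TCAM1P and C19orf48P, and 8 at genes of type TEC, whose transcription awaits experimental check. A further annotation, RefSeq, placed a gene of any kind over 169 sites (22.2%), of which 96 overlapped an lncRNA and 26 a protein-coding gene, so the label intergenic depends on the annotation.

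Small RNA genes were among them. The sites at SNORD3A (folds 42.6 and 12.8) and SNORD3B-1 (31.7 and 14.2), both genes for U3 RNA, ranked 11 and 29 by mean fold. Of the small nuclear RNA genes, RNVU1-2A had folds of 29.2 and 12.2 and RNVU1-31 had 22.6 and 18.0, while RNU5B-1, a gene for U5 RNA of the spliceosome, had 16.8 and 12.6 and RNVU1-15 had 12.2 and 9.28. The last 2 were named after their values were seen. There were 7 sites over a transfer RNA gene, the strongest at TRQ-CTG6-1 (32.2 and 9.78), which lay in the histone gene region of chromosome 6. In 6 of these 7, replicate 1 had the higher fold, the exception being TRI-TAT2-1 (9.01 and 12.2). Over all reproducible MYC intervals, 65 of 443 RefSeq transfer RNA genes (14.7%), 46 of 154 small nuclear RNA genes (29.9%) and 36 of 1199 small nucleolar RNA genes (3.0025%) were overlapped. Transfer RNA genes and U3 genes occur in near-identical copies, and how reads with several placements were handled is not given in the sources used here. At 98% identity over at least 90% of the window, 59 sites (7.75%) had a further copy in the reference, with median folds of 14.6 and 10.5 against 14.1 and 9.89 for the other 702. The window at SNORD3A had 4 further copies, and those at SNORD3B-1, RNVU1-31 and RNVU1-15 had 1 each. The windows at the 7 transfer RNA sites, RNVU1-2A and RNU5B-1 had none.

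The sites were spread over 678 different nearest genes, of which 356 were protein-coding and 322 lncRNA. Of the nearest protein-coding genes, 214 (60.1%) had a reproducible MYC interval within 3 kb of a start site, beside 41.1% of all 20033, and of the nearest lncRNA genes 76 (23.6%) did, beside 16.3% of 18866. This is a description of position with no test. In lists chosen with earlier results known, 1 of 20 ovarian carcinoma lineage and marker genes was the nearest gene of a site. It was SOX17, a transcription factor of the fallopian tube and ovarian carcinoma lineage, with a CpG-rich site 12392 bp away (folds 17.3 and 18.0). The site lay downstream of SOX17 and overlapped the unprocessed pseudogene ENSG00000274310 and, in RefSeq, the protein-coding gene LOC100129098. None of 13 genes of the MAX network, MYC included, and 1 of 12 AP-1 and immediate early genes were nearest. The last was JUND, with a site 11730 bp upstream (12.2 and 8.12) that held an AP-1 motif and lay 892 bp from an HSF1 peak. Over all protein-coding genes the share nearest to a site was 1.78%.

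Most sites stood alone. With neighbours at most 10 kb apart, 55 groups of 2 or more held 120 sites (15.8%) and 641 were single. One group of 4 sites, at chr1:16167281-16182119, lay near ARHGEF19-AS1 and ENSG00000224621 with mean folds of 11.4 to 13.2. Groups of 3 lay near NALT1 at chr9:136567668-136578502 (mean folds 11.4 to 33.4), near ENSG00000258314 at chr14:19061884-19066867 (12.2 to 22.7), and near ITPR3, an inositol trisphosphate receptor gene, and LINC00336 at chr6:33599452-33614086 (10.1 to 16.5). No window in these 4 groups held an E-box or an AP-1 motif. Each window of the chromosome 14 group has 2 or 3 further copies in the reference at 98% identity or more. How reads were placed among these copies was not tested.

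The density of sites per chromosome ranked the chromosomes differently from their share of the MYC intervals. Per Mb of sequence that met the location rule there were 0.671 sites in all. Chromosome 17 had the highest density, with 53 sites at 2.14 per Mb, ahead of chromosome 19 with 28 at 1.73 and chromosome 22 with 23 at 1.64. The lowest with any site were the X chromosome with 11 at 0.133, chromosome 13 with 9 at 0.1898 and chromosome 4 with 17 at 0.212. As a share of all reproducible MYC intervals on the chromosome, the sites were 6.29% on chromosome 17, 3.88% on chromosome 19, 8.61% on chromosome 22 and 9.17% on X, beside 6.47% in all, so the order by density is not one by share. Chromosome Y had none, and no reproducible MYC interval of any class. Chromosome 8, where the MYC gene lies, had 41 sites at 0.784 per Mb, or 7.39% of its MYC intervals. The copy number of each chromosome in these cells was not measured in these files, so its part in the densities was not tested.

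**Figure D5:**
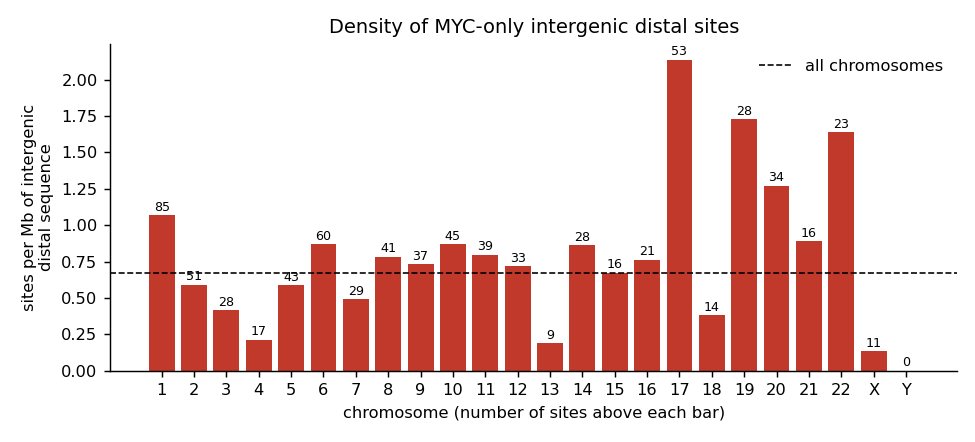
MYC-only intergenic distal sites per Mb of intergenic distal sequence (y axis) by chromosome (x axis), with the number of sites above each bar and a dashed line at 0.671 for all chromosomes together. Chromosomes 17, 19 and 22 stand highest at 2.14, 1.73 and 1.64, where the sites are 6.29%, 3.88% and 8.61% of all MYC intervals.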

How the data were processed

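Per the methods, reads were trimmed, aligned to GRCh38/hg38 with Bowtie 2 and called with MACS2 against the IgG library. Per the file headers, MACS 2.2.9.1 called each library separately at p-value thresholds of 1e-10 (MYC) and 1e-04 (HSF1). Depth, by the same headers, was 8265647 to 10084407 filtered fragments for MYC and HSF1 and 9306942 for IgG. The columns deposited and used here are the pileup at the summit (a signal), the −log10 p-value and the fold enrichment (a ratio to background). No peaks were called in the IgG library itself. The lists hold no read counts per replicate, so no count model was fitted, and peak values, which chose the sites, were given no test.

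Lists were merged at 1 bp, and start sites were those of all transcripts in GENCODE 44. Windows of 200 bp centred on the summit with the higher fold were read from the hg38 reference with pysam 0.24.0. Copies were sought with BLAST 2.17.0. Motif shares were compared by Fisher's exact test in SciPy 1.17.1, two-sided, with Benjamini-Hochberg adjustment over 24 tests and a threshold of 0.05. Wilson intervals have 95% confidence and cover counting error only. The comparison was also run on simulated windows of equal base composition with planted E-boxes. These did not mimic the differences in G and C content between the classes. Named sites were those of the 10 highest mean folds, the nearest to each limit, the remotest, the largest groups, those with 2 E-boxes, examples of each other gene type, and nearest genes in 3 lists. The sites, lists and motifs were chosen with earlier results of these data known. Some items that this rule names are not reported here. The alternatives are given at the end.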

Additional observations from a re-analysis of the deposited data

How the results depend on the processing

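The number of sites was 761 in the main setting. It was 2999 with peaks of either replicate and 383 with MYC peaks at 1e-20, and without 1 MYC replicate it was 904 to 2945. Without 1 HSF1 replicate it was 852 to 968. Those HSF1 settings and the other 7 settings of the rule gave 516 to 1068, within 1.5 times. The odds ratio of the E-box against sites inside genes was 2.61 (adjusted p = 0.030, Fisher's exact test) in windows of 100 bp, so that it passed the threshold there, and without 1 MYC replicate it was 1.09 to 1.46. Against sites with HSF1 the E-box was 1.93 (adjusted p = 0.306, Fisher's exact test) in windows of 100 bp, no longer past the threshold, and 1.94 to 2.08 without 1 MYC replicate. AP-1 against sites with HSF1 was 0.704 (adjusted p = 0.226, Fisher's exact test) in windows of 100 bp, and 0.474 to 0.628 without 1 MYC replicate. AP-1 against sites inside genes passed the threshold in windows of 400 bp at 0.792 (adjusted p = 0.0275, Fisher's exact test), with the summits of MYC replicate 1 at 0.713, and without MYC replicate 2, the values without 1 MYC replicate being 0.792 to 0.793. Against sites near starts, without 1 MYC replicate, AP-1 was 3.23 to 3.70 and the E-box 0.875 to 1.31. The cause of these changes was not tested. Of 165 motif values under alternatives, 134 kept their side of the threshold, 17 passed it newly, 14 lost it and none that was called turned direction. For the CTCF core against sites with HSF1, 3 settings gave no odds ratio, since no such site held the motif. No paired analysis was possible because the lists hold no counts per replicate and the motif tests compare the sequences of merged sites. Windows without repeats were not run, since the reference used here marks none. A place with no peak is not called at this depth and threshold, which is not absence.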

Other observations

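On sequences outside chromosomes 1 to 22, X and Y, which the rule left out, 10 merged MYC intervals held a peak of both replicates, with folds of 11.2 to 34.2 in replicate 1 and 6.99 to 20.3 in replicate 2.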
